A study of Homo sapiens with 8 samples.

Results

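The 10 genes described here encode feedback regulators of the ERK pathway and its ETS-family readouts: the phosphatases DUSP1, DUSP4, DUSP5 and DUSP6, the adaptors SPRY2, SPRY4, SPRED1 and SPRED2, and the transcription factors ETV4 and ETV5. They were chosen by symbol, and all 10 are among the 14668 genes of the deposited count table. The cells were T3M4, an established human pancreatic cancer line. The sgControl groups are labelled with a control guide and the sgMETTL13 groups with a guide to METTL13, a methyltransferase of the translation elongation factor eEF1A. Cells of all 4 groups went through 18 h of serum starvation followed by a 2 h pulse of 10% FBS. Both kinds of library came from the lysates, stranded RNA-seq for mRNA levels and RiboLace ribosome profiling for ribosome-protected fragments (footprints), with 2 libraries per group and 8 in all. The labels used here do not say which CRISPR system was used, whether the cells were 1 clone or a pool, or whether the replicates were separate cultures. The p-values therefore measure only the spread between these libraries, which may be technical.

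ERK is the last kinase of the cascade that runs from growth factor receptors through RAS, RAF and MEK, and serum activates it within minutes. Active ERK induces its own inhibitors. Dual-specificity phosphatases (DUSPs) remove the activating phosphates from ERK and related kinases, Sprouty and SPRED proteins act upstream on RAS and RAF, and ETV4 and ETV5 are ETS factors whose genes are widely used as readouts of ERK output. The question put to the data was whether their mRNA, their footprints or the footprints per mRNA differed between the guides.

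The RNA-seq libraries held 20860953 to 48353722 counts and the footprint libraries 6063885 to 9837253. METTL13 was lower in all 4 sgMETTL13 libraries, with footprints of 64.8 and 57.3 CPM (counts scaled to a common, TMM-normalised library size) under sgControl against 20.2 and 26.3 CPM under sgMETTL13. All 7 epithelial markers looked up were present, with summed mRNA of 2921 to 4248 CPM, while summed mRNA was 28.0 to 39.4 CPM for 6 fibroblast markers (mostly COL1A1), 20.7 to 49.2 CPM for 4 leukocyte markers (nearly all CD68) and at most 1.59 CPM for 4 endothelial markers. The sgMETTL13 RNA replicates stood apart from each other. Over 10446 genes, the log2 difference between replicates had an SD of 0.919 there and of 0.291 to 0.387 in each of the other groups.

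No member passed the test in any of the 3 contrasts. All 10 passed the expression filter in both assays. In footprints, edgeR's quasi-likelihood test called 0 of 10 members at an adjusted p below 0.05, where it called 21% of the 10714 genes tested, 8.94% higher and 12% lower in sgMETTL13. DUSP1, DUSP6 and SPRY2 on the higher side and ETV4 on the lower had an unadjusted p below 0.05, as did 34.6% of all genes tested (16.2% higher). In mRNA 0 of 10 passed, beside 0% of 12468 genes called. None had an unadjusted p below 0.05, beside 0.802% of all genes (0.594% higher). METTL13 itself, at -1.42 on the log2 scale (SE 0.406), was not called in mRNA (edgeR unadjusted p = 0.00457, adjusted p = 0.9999). The absence of calls in mRNA therefore does not show that the members were unchanged. For footprints per mRNA, the interaction of assay and guide, 0 of 10 passed and none had an unadjusted p below 0.05, beside 0% of 10446 genes called and 3.32% at an unadjusted p below 0.05 (1.03% higher). DESeq2 also called 0 members in each contrast.

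**Figure D1:**
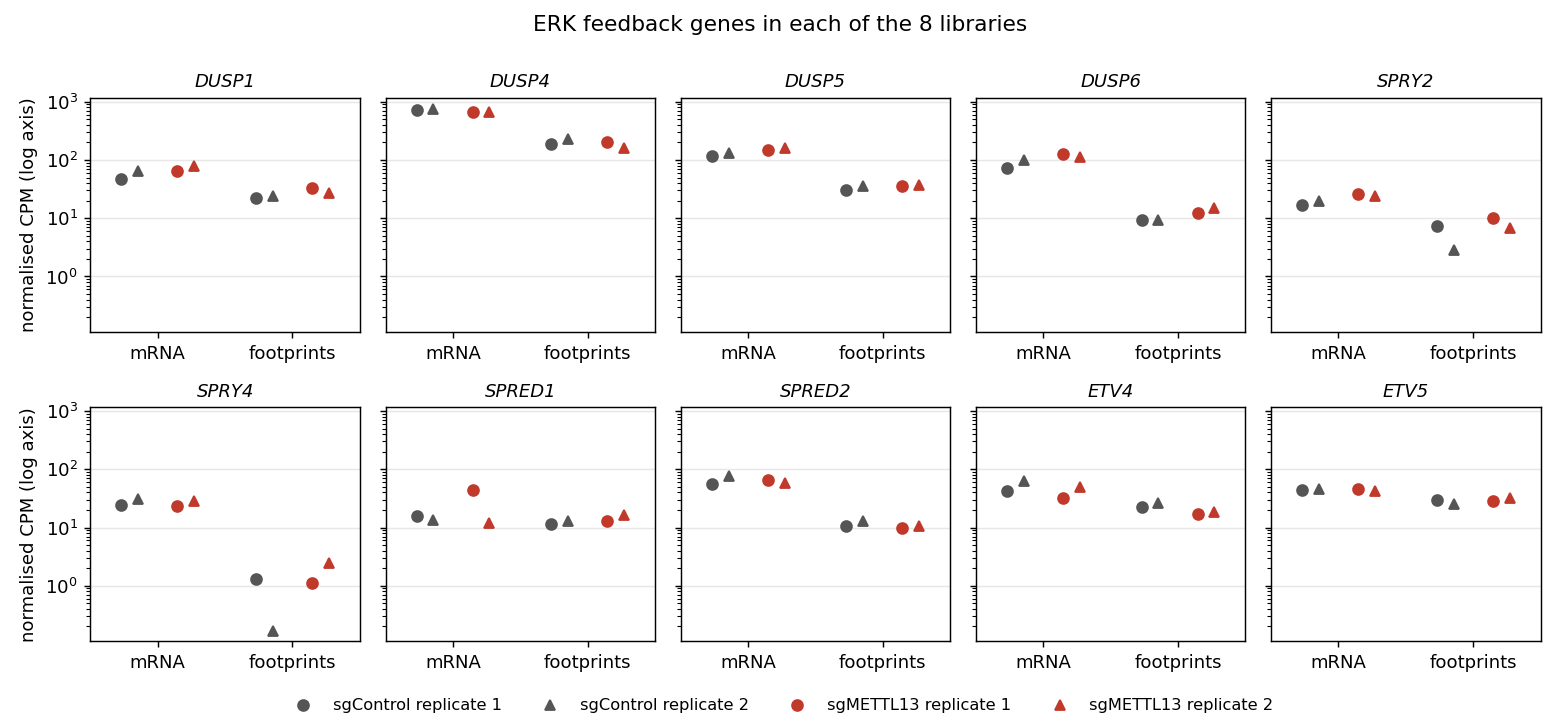
Normalised CPM (log axis) of each of the 10 genes in the 8 libraries, mRNA at the left and footprints at the right of every panel, with circles for replicate 1 and triangles for replicate 2. SPRED1 mRNA stood at 44.1 CPM in sgMETTL13 replicate 1 alone, and SPRY4 footprints ranged from 0.170 to 2.43 CPM.

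DUSP1 (MKP-1), on chromosome 5 at 172768096 to 172771195 (GRCh38.p14), encodes a nuclear phosphatase of p38, JNK and ERK and is itself an immediate early gene. Its footprints stood at 22.5 and 23.9 CPM under sgControl and at 32.6 and 27.6 CPM under sgMETTL13. Both sgMETTL13 values lay above both control values. The difference was 0.36 on the log2 scale (SE 0.171, n = 2 per arm), a fold of 1.28 with a 95% interval of 1.01 to 1.64, and edgeR's adjusted p was 0.131. DUSP1 mRNA stood at 47.9 and 64.7 CPM under sgControl and at 64.6 and 77.5 CPM under sgMETTL13, so that sgControl replicate 2 and sgMETTL13 replicate 1 were level and the arms overlapped. The mRNA difference was 0.33 on the log2 scale (SE 0.388).

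DUSP6 (MKP-3), on chromosome 12 at 89347235 to 89352501, encodes the cytoplasmic phosphatase that acts selectively on ERK. Its footprints stood at 9.26 and 9.16 CPM under sgControl and at 12.3 and 15.2 CPM under sgMETTL13. The control replicates were level, with only 3.73% of genes closer between these libraries, and the arms were apart. The difference of 0.56 on the log2 scale (SE 0.219) is a fold of 1.47, with a 95% interval of 1.08 to 2.01, and missed the threshold (edgeR adjusted p = 0.0679). DUSP6 mRNA stood at 74.0 and 100.7 CPM under sgControl and at 129.3 and 112.2 CPM under sgMETTL13, again with the arms apart, at 0.47 on the log2 scale (SE 0.362). Footprints per mRNA of DUSP6 differed by 0.11 on the log2 scale, with a 95% interval from -0.74 to 0.96. Its footprint difference passed in 2 alternative fits. Without the filter on low counts it was 0.57 (edgeR adjusted p = 0.0448, in a fit that called 8.36% of genes higher). With a crossed pairing of the replicates, chosen after seeing the data, it was 0.56 (edgeR adjusted p = 0.0331, with 14.1% of genes called higher).

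DUSP1 and DUSP6 are shown with the 250 bases before their annotated start, because both had footprint arms that did not overlap and, over all 8 libraries, only 0.785% of genes lay nearer to DUSP6 in pattern than DUSP1 did. Sequences are from RefSeq on GRCh38.p14, and start windows were searched here for 6 of the 10 genes. The sequences shown read 5′ to 3′ on the gene's strand (minus for both), at chr5:172771196-172771445 and chr12:89352502-89352751. Capitals mark matches on either strand to 6 promoter motifs.
DUSP1: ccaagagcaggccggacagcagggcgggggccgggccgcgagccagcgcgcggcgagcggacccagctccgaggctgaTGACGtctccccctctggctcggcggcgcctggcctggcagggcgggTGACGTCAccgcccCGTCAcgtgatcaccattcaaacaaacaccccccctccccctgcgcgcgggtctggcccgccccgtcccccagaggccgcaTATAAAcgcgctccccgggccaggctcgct
DUSP6: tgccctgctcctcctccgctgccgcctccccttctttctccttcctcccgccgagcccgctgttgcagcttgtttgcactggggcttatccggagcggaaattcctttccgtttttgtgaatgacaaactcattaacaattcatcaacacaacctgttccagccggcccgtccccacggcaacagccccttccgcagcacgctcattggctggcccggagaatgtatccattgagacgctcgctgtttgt

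The DUSP1 window held 4 matches to TGACG, the core of the cyclic AMP response element (CRE), at 172, 125, 122 and 111 bases before the start. The matches at 125 and 122 overlap as 1 full CRE, TGACGTCA, and a TATAAA motif began 30 bases before the start. Of 35116 RefSeq windows of the same length, 21.2% held TGACG, 1.65% the full CRE and 10.7% TATAAA. In the DUSP6 window none of the 6 motifs was found, the others searched being the AP-1 site TGANTCA (6.57% of windows), the ETS core CCGGAA (14.5%) and the CArG box (1.16%). Of 3 SPRY2 windows, 1 held 1 TGACG and 1 CCGGAA and the others held none of the motifs. The SPRY4 window held 1 TGACG, 1 of 2 SPRED2 windows held TATAAA 31 bases before the start and the other none, and the SPRED1 window held none. Such matches describe letters in a window and say nothing of which factor binds there.

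DUSP4 (MKP-2), a nuclear phosphatase on chromosome 8 at 29333064 to 29350684, gave the most counts of the 10 genes in both assays. Its footprints stood at 185.7 and 231.7 CPM under sgControl and at 202.4 and 159.3 CPM under sgMETTL13, so the arms overlapped and each replicate 2 stood on the outside. The difference was -0.22 on the log2 scale (SE 0.139), with a 95% interval of the fold from 0.703 to 1.04 (edgeR adjusted p = 0.266). Without sgControl footprint replicate 1 it was -0.38 and passed (edgeR adjusted p = 0.0410). DUSP4 mRNA stood at 724.1 and 756.9 CPM under sgControl and at 675.4 and 670.7 CPM under sgMETTL13, arms that did not overlap at a difference of -0.14 (SE 0.323).

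DUSP5, on chromosome 10 at 110497907 to 110511533, encodes a nuclear phosphatase specific for ERK. Its footprints stood at 31.1 and 35.4 CPM under sgControl and at 36.2 and 36.8 CPM under sgMETTL13, a difference of 0.12 on the log2 scale (SE 0.159) whose 95% interval of the fold ran from 0.868 to 1.36. The arms lay apart only by the gap between 35.4 and 36.2 CPM. DUSP5 mRNA stood at 119.4 and 132.8 CPM under sgControl and at 151.5 and 163.5 CPM under sgMETTL13, a difference of 0.32 (SE 0.340) with the arms apart. For footprints per mRNA the difference was -0.19 (SE 0.324).

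The Sprouty genes had the fewest footprints of the members, summed over libraries, and the widest errors. SPRY2, on chromosome 13 at 80335976 to 80341126, encodes an adaptor that restrains receptor signalling to RAS. Its footprint counts were 61 and 17 in sgControl and 99 and 62 in sgMETTL13, or 7.33 and 2.88 CPM against 10.1 and 6.83 CPM. Control replicate 2 was the low library, and control replicate 1 lay above sgMETTL13 replicate 2. The difference of 0.65 on the log2 scale (SE 0.301) is a fold of 1.57, with a 95% interval of the log2 difference from 0.03 to 1.26, and missed the threshold (edgeR adjusted p = 0.122). That value moved with the library left out. It was 0.19 without sgControl replicate 2, 0.33 without sgMETTL13 replicate 1 and 1.54 without sgControl replicate 1. The difference passed without the filter on low counts (0.67, edgeR adjusted p = 0.0447). SPRY2 mRNA stood at 17.2 and 19.8 CPM under sgControl and at 26.5 and 23.8 CPM under sgMETTL13, arms that did not overlap at 0.44 (SE 0.422).

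SPRY4, on chromosome 5 at 142310430 to 142325021, encodes a related inhibitor. It had 11 and 1 footprints in sgControl and 11 and 22 in sgMETTL13. Against that, its mRNA counts were 887 and 637 in sgControl and 1104 and 1154 in sgMETTL13, or 23.9 and 30.6 CPM against 23.4 and 28.7 CPM, with the arms interleaved. The single footprint of sgControl replicate 2 is 0.170 CPM, with an exact 95% Poisson interval from 0.00429 to 0.945 CPM, and the 3 counts that a 0 would allow there are 0.509 CPM. Summed over replicates the footprints were 2.07-fold higher in sgMETTL13 (95% interval 1.04 to 4.41, for counting error only). The fitted difference was 1.04 on the log2 scale (SE 0.542, 95% interval -0.07 to 2.15, edgeR adjusted p = 0.173). It was 0.38 without sgControl replicate 2, and 3.24 with a pass (edgeR adjusted p = 0.0128) without sgControl replicate 1, a fit that sets sgMETTL13 against that 1 footprint.

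SPRED1, on chromosome 15 at 38252836 to 38357249, encodes a membrane protein that brings the RAS-inactivating protein neurofibromin to RAS. Its mRNA stood at 15.8 and 13.6 CPM under sgControl and at 44.1 and 11.9 CPM under sgMETTL13. The library of 44.1 CPM was sgMETTL13 replicate 1, and replicate 2 lay below both controls. The fitted difference of 0.93 (SE 0.570, 95% interval -0.32 to 2.17) rested on that library: it was -0.24 without it, and 1.58 with a pass (edgeR adjusted p = 4.7e-07) without replicate 2, a setting that called 18.7% of all genes higher. SPRED1 footprints did not show the split, at 11.7 and 12.7 CPM under sgControl and 13.2 and 16.2 CPM under sgMETTL13 (0.25, SE 0.208). The arms of the footprints were apart, with a 95% interval of the fold from 0.889 to 1.60. Footprints per mRNA accordingly read -0.65 (SE 0.707) with all libraries, 0.48 without sgMETTL13 RNA replicate 1 and -1.29 without replicate 2, where the difference passed (edgeR adjusted p = 0.0108) along with 12% of all genes in that direction.

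SPRED2, on chromosome 2 at 65307175 to 65432599, encodes a protein of the same family. Its footprints stood at 10.7 and 12.7 CPM under sgControl and at 9.92 and 10.6 CPM under sgMETTL13, a difference of -0.20 (SE 0.219) with a 95% interval of the fold from 0.639 to 1.19. The arms were separated only by the gap between 10.6 and 10.7 CPM. SPRED2 mRNA stood at 55.9 and 78.1 CPM under sgControl and at 65.3 and 57.7 CPM under sgMETTL13, with both sgMETTL13 values between the controls (-0.13, SE 0.388).

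Of the ETS factors, ETV4 (PEA3), on chromosome 17 at 43527846 to 43546340, had footprints of 22.2 and 26.5 CPM under sgControl and 17.1 and 18.4 CPM under sgMETTL13. Both sgMETTL13 values lay below both controls. The difference was -0.47 on the log2 scale (SE 0.182), a fold of 0.723 with a 95% interval of 0.559 to 0.936, and missed the threshold (edgeR adjusted p = 0.0647). It was -0.60 without sgControl replicate 1. With the crossed pairing, chosen after seeing the data, it passed (-0.47, edgeR adjusted p = 0.0383, with 15.9% of genes called lower). ETV4 mRNA stood at 42.3 and 63.0 CPM under sgControl and at 31.98 and 49.7 CPM under sgMETTL13, with replicate 2 the higher in each arm and the arms overlapping (-0.37, SE 0.427). Without sgMETTL13 RNA replicate 1 that mRNA difference was -0.01, and without replicate 2 it was -0.72.

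ETV5 (ERM), on chromosome 3 at 186046314 to 186109089, encodes the paralog of ETV4. Its mRNA was the most even of the members, at 44.6 and 45.0 CPM under sgControl and 46.5 and 42.7 CPM under sgMETTL13, a difference of -0.01 on the log2 scale (SE 0.390). Its footprints stood at 29.8 and 25.4 CPM under sgControl and at 28.5 and 31.6 CPM under sgMETTL13. There too the arms overlapped, and the 95% interval of the fold ran from 0.844 to 1.36 around 0.10 on the log2 scale (SE 0.167). The values of ETV4 and ETV5 thus stood on different sides of 0 in footprints, but the difference between the 2 genes was not tested.

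**Figure D2:**
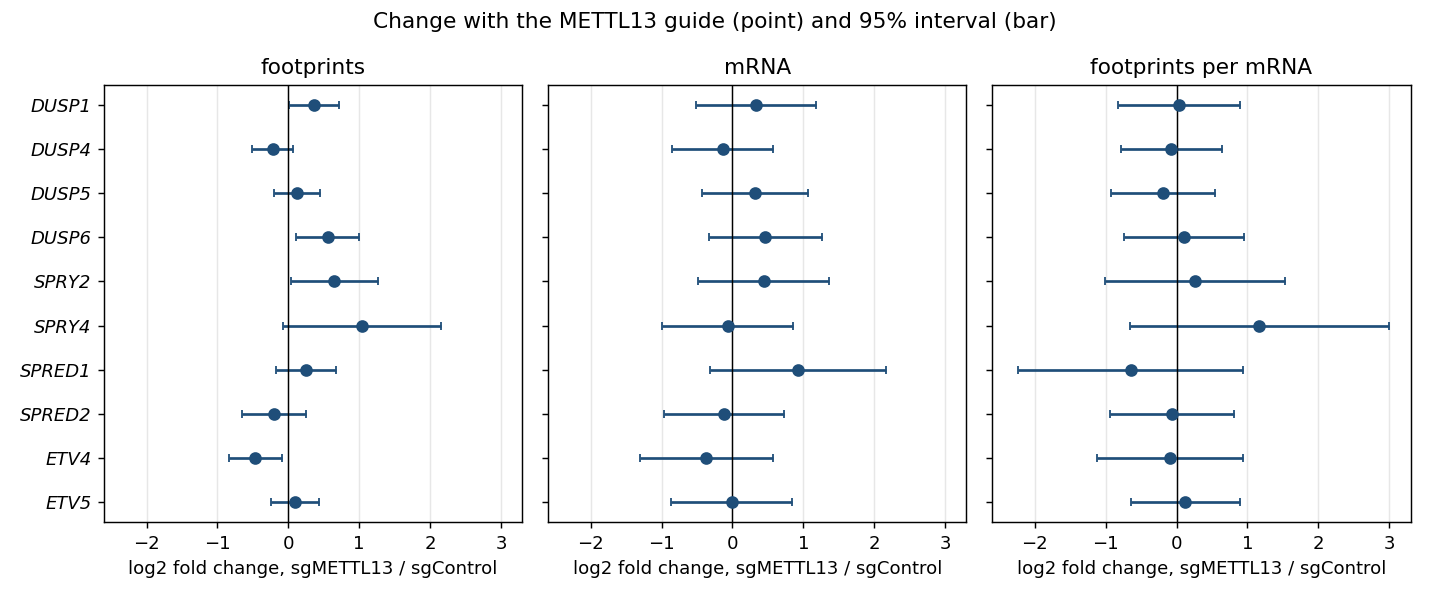
Log2 fold change of sgMETTL13 over sgControl for each gene (points) with its 95% interval from the edgeR fit (bars), in footprints, mRNA and footprints per mRNA. The footprint intervals of DUSP1, DUSP6, SPRY2 and ETV4 lie to one side of 0 before adjustment, and every mRNA and footprints-per-mRNA interval spans 0.

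As a set the members were spread to both sides. Of the 10, 7 had a footprint fold change above 0 and 3 below, with a median of 0.19 against 0.01 over all 10714 genes, of which 51% were above 0. The footprint arms were apart with sgMETTL13 higher for DUSP1, DUSP5, DUSP6 and SPRED1 (33.7% of all genes) and with sgMETTL13 lower for SPRED2 and ETV4 (30.4% of all genes), 6 of 10 members in all beside 64.1% of all genes. In mRNA 5 lay above 0 and 5 below, with a median of 0.16 against 0.04 over all genes, of which 55.6% were above 0. The mRNA arms were apart for 4 members, DUSP5, DUSP6 and SPRY2 with sgMETTL13 higher (5.07% of all genes) and DUSP4 with sgMETTL13 lower (6.88%), beside 12% of all genes in either direction. For footprints per mRNA 5 lay above 0 and 5 below, and the median was -0.02 against -0.11 over all genes, of which 40.1% were above 0. The median SE of the members was 0.195 in footprints, 0.389 in mRNA and 0.385 for footprints per mRNA.

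**Figure D3:**
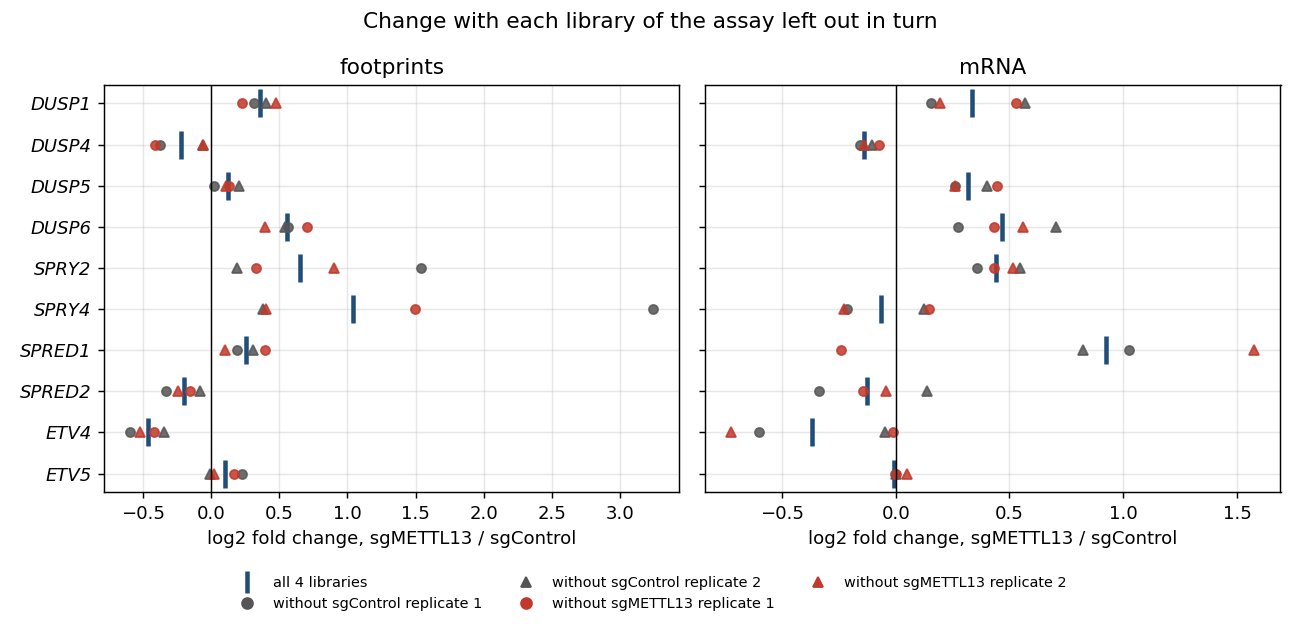
Log2 fold change of each gene with all 4 libraries of the assay (vertical bars) and with 1 library left out in turn (symbols named in the legend), for footprints and mRNA. SPRY2 and SPRY4 footprints moved most with the control libraries, to 1.54 and 3.24 without sgControl replicate 1, and SPRED1 mRNA moved from -0.24 to 1.58 with the sgMETTL13 libraries.

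Leaving out sgControl footprint replicate 1 called 4 members, SPRY2 and SPRY4 higher and DUSP4 and ETV4 lower, in a setting that called 12.7% of all genes higher and 14.6% lower. With any other footprint library left out 0 members passed. The plot of the changes with libraries left out shows ETV5 as the only member whose footprint difference changed sign, to -0.01 without sgControl replicate 2.

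Within the control cells, footprints were few for the amount of mRNA in most of these genes. The log2 ratio of footprint to mRNA abundance lay below that of the median gene (-0.23) for all 10 members and below the first quartile of the 10446 genes for 6, where all genes give 50% and 25%. SPRY4 had the lowest ratio of the members at -5.06 (SE 0.608), at percentile 1.32 of all genes, followed by DUSP6 at -3.25 (SE 0.289, percentile 6.47) and SPRED2 at -2.52 (SE 0.289, percentile 11.5). DUSP5, DUSP4 and SPRY2 came next at -1.93, -1.83 and -1.83, neighbours within their errors. DUSP1 at -1.28, ETV4 at -1.12 and ETV5 at -0.70 followed, and SPRED1 was closest to the median gene at -0.27 (SE 0.505). The sgMETTL13 libraries gave 10 of 10 below the median and 6 below the first quartile as well. There SPRY4 stood at percentile 3.16, DUSP6 at 6.64 and SPRED2 at 10.6. That is not an independent repeat, because the ratios of both guides shared the model, the gene filter and the scaling. With 1 control library left out, 9 or 10 members lay below the median gene, SPRED1 moving between -0.15 and 0.06 relative to it. The number below the first quartile ran from 5 to 7: SPRY2 left it without sgControl footprint replicate 2, and DUSP1 joined it without sgControl RNA replicate 1. Relative to the median gene, SPRY4 stood at -4.83 with all control libraries, at -7.02 without sgControl footprint replicate 1 and at -4.10 without footprint replicate 2, and SPRY2 at -1.60, -2.41 and -1.07. The ratio is not corrected for how much of an mRNA is coding, and no transcript lengths were used here, so it describes these counts and is not a rate of translation to compare between genes.

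**Figure D4:**
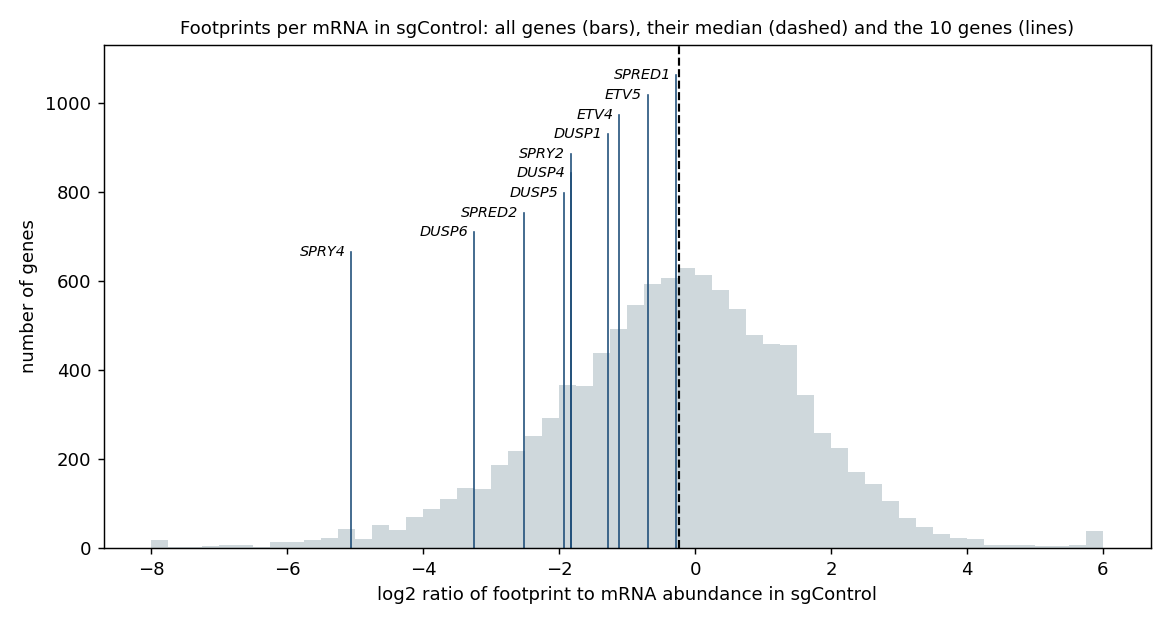
Number of genes by log2 ratio of footprint to mRNA abundance in sgControl (bars, with values beyond the axis counted in the outermost bars), with the median gene dashed at -0.23 and a line for each of the 10 genes. SPRY4 at -5.06 and DUSP6 at -3.25 lie farthest to the left, and SPRED1 at -0.27 lies beside the median.

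Genes whose pattern was most like that of a member were found by the root mean square difference of log2 CPM over the 8 libraries, after centring each gene within each assay, among 8155 other genes with a mean of at least 5 CPM in both assays. DUSP1 was nearest to NFKBIA, the inhibitor of NF-kB, at 0.088, and DUSP6 to TNFAIP3, another NF-kB feedback gene, at 0.081, where the median gene lay 0.351 and 0.394 away. DUSP5 was nearest to IRS2 (0.051), DUSP4 to EPB41L2 (0.038), ETV4 to DAG1 (0.031) and ETV5 to M6PR (0.034). For SPRED1 the nearest was RO60 (0.071), for SPRED2 UBQLN2 (0.066), for SPRY2 ZNF621 (0.217) and for SPRY4 RPL6 (0.271), the last pair being far looser. Among the members themselves, DUSP5 was within the nearest 1% of genes to DUSP1, DUSP1 to DUSP6 and SPRY2 to SPRY4. Seen from the other gene of each pair, 1.23% of genes lay nearer to DUSP5 than DUSP1 did. For DUSP1 and DUSP6 that share was 2.39%, and for SPRY2 and SPRY4 29.3%. SPRY2 and SPRY4 were 0.490 apart, where the median gene lay 0.547 from SPRY2, and SPRY4 itself fell below the 5 CPM cutoff. These distances are descriptions over 8 libraries of 1 cell line.

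Of 10 paralogs of the members looked up, 6 were tested in footprints. None passed edgeR's test, beside 21% of all genes tested. None had an unadjusted p below 0.05, beside 34.6% of all genes. DUSP2, a nuclear ERK phosphatase best known in lymphocytes, had only 12 and 10 footprints under sgControl and 23 and 24 under sgMETTL13. These were 1.44 and 1.70 CPM against 2.35 and 2.65 CPM (0.66, SE 0.383). DUSP16, which acts on JNK and p38, stood at 7.45 and 7.29 CPM under sgControl and at 6.85 and 5.07 CPM under sgMETTL13 (-0.32, SE 0.258). The others tested were DUSP7, DUSP10, SPRY1 and ETV1, with differences between -0.35 and 0.31. DUSP8, DUSP9 and SPRED3 fell under the filter in footprints, and SPRY3 was absent by that symbol from the deposited counts.

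Upstream of the feedback genes, 24 genes of the cascade from growth factor receptors to the kinases were measured. In footprints 1 passed as higher and 0 as lower, beside 8.94% and 12% of all genes. The 1 that passed was NF1, which encodes neurofibromin, the RAS inactivator that SPRED1 recruits. It rose from 4.57 and 4.24 CPM in sgControl to 9.51 and 11.9 CPM in sgMETTL13, with both sgMETTL13 libraries above both controls. The log2 difference was 1.25 with an SE of 0.259 (edgeR adjusted p = 0.00104), and it passed with any 1 footprint library left out, at 1.08 to 1.40. NF1 mRNA, at 110.0 and 112.1 CPM in sgControl, read 161.7 and 78.8 CPM in sgMETTL13 replicates 1 and 2. The list's median footprint change was 0.08 against 0.01 over all genes. Without sgControl replicate 1 more of the list passed in both directions, as did more of all genes.

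Other genes induced by ERK changed in both directions in footprints. Of 17 tested, 4 rose and 3 fell, beside 8.94% and 12% of all genes, and the median was 0.16 against 0.01 over all genes. The EGF receptor ligand gene AREG, with 764.5 and 631.9 CPM under sgControl, rose to 1087 and 1119 CPM (0.64, SE 0.121, edgeR adjusted p = 0.000448), and the related EREG rose by 0.54. The cytokine gene LIF rose by 0.79 and the early transcription factor gene EGR1, named outside the rule for naming genes, by 0.68. On the lower side were the cyclin D1 gene CCND1 at -0.71, the neuropeptide precursor gene VGF at -1.14 and the urokinase receptor gene PLAUR at -0.42. Only AREG and CCND1 of these 7 passed with any 1 footprint library left out. LIF, EGR1 and PLAUR also lost the call under DESeq2 (adjusted p = 0.158, 0.153 and 0.0892), which left 2 higher and 2 lower. Without sgMETTL13 replicate 2 fewer of the list passed in both directions, as did fewer of all genes. Without sgControl replicate 1 fewer of the list passed higher and more lower, where more of all genes passed in both directions.

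Among 14 ERK substrates and ETS-pathway partners 1 rose and 4 fell, beside 8.94% and 12% of all genes, and the median was 0.00 against 0.01 over all genes. ELK1, an ETS activator phosphorylated by ERK, fell from 22.8 and 30.0 CPM to 13.6 and 9.81 CPM (-1.18, SE 0.203, edgeR adjusted p = 0.000167). ERF, an ETS repressor that ERK exports from the nucleus, fell from 93.2 and 126.4 CPM to 64.3 and 47.1 CPM (-0.99, SE 0.161, edgeR adjusted p = 8.8e-05). In both genes the higher control was replicate 2 and the arms were well apart, and both passed with any 1 footprint library left out. CIC, the repressor of ETV4, ETV5, DUSP and SPRY genes that ERK inactivates, stood at 37.7 and 43.6 CPM under sgControl and at 32.2 and 27.4 CPM under sgMETTL13 (-0.46, SE 0.162, edgeR adjusted p = 0.0415). The other 2 that passed were JUNB (-0.44) and the ERK-activated kinase gene RPS6KA3 (0.43). CIC and RPS6KA3 lost the call under DESeq2 (adjusted p = 0.118 and 0.123), and RPS6KA3 also with RLE and upper quartile factors (edgeR adjusted p = 0.0507 and 0.0513). CIC, JUNB and RPS6KA3 each lost the call with at least 1 library left out. Without sgControl replicate 2 fewer of the list passed in both directions, as did fewer of all genes.

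**Figure D5:**
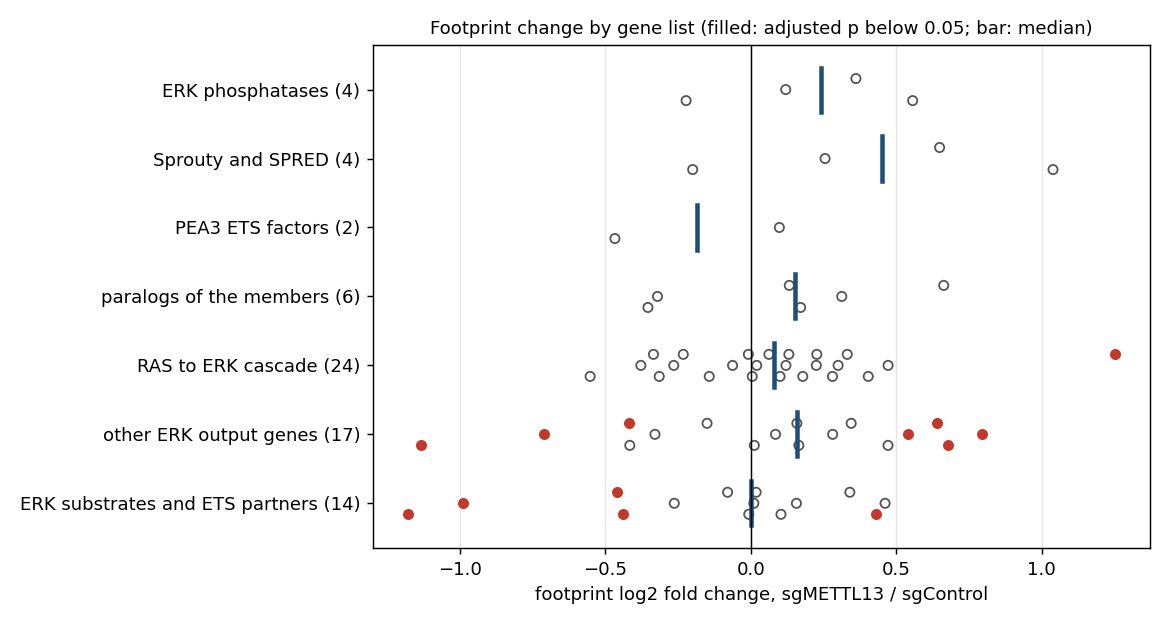
Footprint log2 fold change of sgMETTL13 over sgControl for each tested gene of 7 lists (number tested in parentheses), filled where edgeR's adjusted p was below 0.05, with a bar at the list median. None of the 10 feedback genes in the top 3 rows is filled. Filled are 1 gene of the cascade, 7 other output genes and 5 substrates or partners. The share over all genes tested was 21%. The lists were chosen with earlier results of these data known, and differences between rows were not tested.

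All footprint calls in these lists, NF1, ELK1 and ERF included, were lost in a single model of all 8 libraries. That model called 0 of 10446 genes in footprints. It lost METTL13 too (-1.41, edgeR adjusted p = 0.441, against 6.4e-07 with the footprint libraries alone), so the loss is not particular to these lists. For the 10 members that model left the footprint differences in their directions.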

How the data were processed

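The authors deposited 1 table of unnormalised counts by gene symbol, with a column for each of the 8 libraries. The submitters' processing notes name hg38, the trimmer cutadapt 1.18, the aligners Bowtie 1.2.2 and HISAT2 2.0.4, the counter featureCounts, and UMI-tools. Their order, the annotation, the strand setting and the handling of multiply aligned reads and of molecular identifiers are not given in the sources used here. If duplicates were not removed, counts are not independent molecules.

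Samples were grouped by their labels. The test was edgeR's quasi-likelihood test (edgeR 4.0.16, run in R 4.3.3). TMM scaling and the filterByExpr cutoff (minimum count 10) were computed within each assay. Footprint and mRNA contrasts used the 4 libraries of the assay, and footprints per mRNA the interaction over all 8. P-values were adjusted over all genes tested by the Benjamini-Hochberg method, with a threshold of 0.05. The SE was taken as the log2 difference divided by the root of the F statistic. No library was dropped or imputed, and no 2 columns were identical.

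The members and gene lists were chosen with earlier results of these data known. Named beside the members were METTL13, all paralogs, up to 6 called genes per list (or the 2 of smallest p), and the nearest gene in pattern. Alternatives were DESeq2 1.42.0, RLE and upper quartile factors, no filter, each library left out, replicate blocks and 1 model of all libraries. The fits were tested on simulated data, with the same spread for both guides and changes placed only in genes of higher counts. That test does not cover the wider spread of the sgMETTL13 RNA replicates or the low Sprouty footprint counts.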

Additional observations from a re-analysis of the deposited data

How the results depend on the processing

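Of the members' differences, none changed sign under another test, size factor, filter or block. Counts of genes called were less stable. DESeq2 called 546 genes higher and 825 lower in footprints, and 1 higher and 4 lower for footprints per mRNA. Upper quartile factors called 1 gene lower in mRNA, and 1 model over all 8 libraries called 0 higher and 0 lower in footprints. Without the filter on low counts 2 members, DUSP6 and SPRY2, passed higher in footprints. With 1 library left out, footprint calls ran from 254 to 1404 higher and from 447 to 1614 lower, and members called from 0 to 2 higher and from 0 to 2 lower. In mRNA they ran from 0 to 2359 higher and from 0 to 150 lower (members 0 to 1 higher), the most without sgMETTL13 replicate 2. For footprints per mRNA they ran from 0 to 171 higher and from 0 to 1258 lower (members 0 to 1 lower). The cause was not tested.

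These differences changed sign with 1 library left out, with ranges of -0.010 to 0.22 for ETV5 footprints, and in mRNA -0.0016 to 0.049 for ETV5, -0.23 to 0.15 for SPRY4, -0.24 to 1.58 for SPRED1 and -0.34 to 0.14 for SPRED2. For footprints per mRNA they were -0.21 to 0.22 for DUSP1, -0.26 to 0.094 for DUSP4, -0.14 to 0.31 for DUSP6, -0.24 to 1.11 for SPRY2, -1.29 to 0.48 for SPRED1, -0.34 to 0.15 for SPRED2 and -0.47 to 0.29 for ETV4. The control footprint to mRNA ratio of SPRED1 ran from -0.15 to 0.059 relative to the median gene, under alternatives chosen after seeing the data. A lone library in an arm is assumed to vary like the others.

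The replicate numbers were not taken as pairs. Across genes the replicate differences of the guides correlated at -0.18 in footprints and 0.42 in mRNA. A replicate block gave 716 genes higher and 1013 lower in footprints and 0 members, and 0 genes in mRNA and for footprints per mRNA. For footprints per mRNA a block by lysate also gave 0. That block took RNA and footprint libraries of a guide with the same replicate number as 1 lysate, which the labels do not say. Under the replicate block in footprints LIF, EGR1 and PLAUR lost the call (edgeR adjusted p = 0.0503, 0.0649 and 0.0517), leaving 2 higher and 2 lower among the other ERK output genes. CIC, JUNB and RPS6KA3 lost it too (0.0808, 0.0504 and 0.0649), leaving 0 higher and 2 lower among the substrates and partners. Crossing the numbers, a choice made after seeing the data, gave 1513 higher and 1707 lower in footprints, with 1 member higher and 1 lower. The difference of the per-assay fold changes gives no count of calls.

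Among the members, depth limits SPRY4 and SPRY2 above all, with 1 to 22 and 17 to 99 footprints per library.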
